A study of Mus musculus with 9 samples.

Results

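Claudins are the membrane proteins that form the strands of tight junctions between neighbouring cells. The set described here holds 10 mouse claudin genes of 18194 named on the array, Cldn1, Cldn3, Cldn4, Cldn5, Cldn6, Cldn7, Cldn8, Cldn11, Cldn12 and Cldn15, and 17 of the 45101 probe sets of an Affymetrix array, each annotated with the symbol of 1 of these genes and no other. Cldn5 was selected on its lower signal in Lim1 mutant than in wild-type renal vesicles on these same 9 arrays. Its difference is therefore a description and carries no test. The other 9 genes were chosen by family name with those results known, and their differences were read from a fit over the whole array.

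Renal vesicles of E12.5 mouse embryos were cut out by laser capture, and RNA of 5 wild-type and 4 Lim1 mutant samples was put on 1 array each. Each sample was an independent pool of about 30 to 50 vesicles, per the design text. The labels name neither the allele nor the strain, nor how many embryos a pool held. The renal vesicle is the first epithelium of the nephron, and Lim1, now named Lhx1, is a LIM homeodomain transcription factor of that structure.

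Each claudin crosses the membrane 4 times in the textbook model, and its outer loops pair with those of claudins on the next cell. Some claudins seal the space between cells and others form pores for ions, so the set of claudins in an epithelium shapes what can pass between its cells. Cldn5 is best known from the tight junctions of endothelium, above all in the brain, and is also known from podocytes. Cldn3, Cldn4, Cldn7 and Cldn8 are known from the collecting duct, which grows from the ureteric bud, and Cldn1 from the epidermis and from the parietal layer of the glomerular capsule. Cldn6 is a claudin of embryonic epithelia, Cldn11 of myelin and Sertoli cells, and Cldn15 of the intestine. Cldn12 is unusual in the family because it lacks the C-terminal motif by which other claudins bind scaffold proteins such as ZO-1.

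Array medians of the deposited signals lay between 144 and 195. Correlations across probe sets between arrays, on the log2 scale, ran from 0.823 to 0.931. Wild-type arrays 3 and 1 stood apart most from the others, with mean correlations of 0.849 and 0.859 against 0.877 to 0.901 elsewhere. The 12 vesicle marker genes, Lhx1 among them, were all measured above the filter on dim probe sets. Their summed signal was 119806 to 309492 in the wild type and 151934 to 170873 in the mutants. On wild-type array 1 it was mostly Ccnd1, Jag1 and Wnt4 (83136, 49181 and 41699). With no other tissue to compare, the sum is no check of identity. None of the 12 passed the test, with 5 differences above 0 and 7 below, Dll1 lowest at -1.33 ± 0.48. Signal of the mutated gene differed between its probe sets. At one Lhx1 probe set the signals were 2327 to 17587 on the wild-type arrays and 6.88 to 10.5 on the mutant arrays, while at the brighter one they were 1696 to 18555 and 4108 to 4951. Only the first probe set separated the groups. The deleted stretch of Lhx1 is not described in the labels, so it is not known whether the second lies outside it.

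Upstream windows are printed for Cldn5, Cldn11 and Cldn6, the claudins with the largest differences in either direction among the 9 members that had a window. They come from RefSeq on GRCm38.p6 and cover 250 bases before an annotated transcription start, written 5′ to 3′ along the gene. The Cldn5 window is chr16:18776597-18776846, the Cldn6 window chr17:23679115-23679364 and the Cldn11 window chr3:31149670-31149919, all on the plus strand. Capitals mark 3 motifs searched on both strands, none overlapping another here: TAATTA, a core bound by LIM homeodomain factors, CAGGTG, an E-box of the kind bound by Snail and ZEB repressors, and CCAAT, the CCAAT box.
Cldn5: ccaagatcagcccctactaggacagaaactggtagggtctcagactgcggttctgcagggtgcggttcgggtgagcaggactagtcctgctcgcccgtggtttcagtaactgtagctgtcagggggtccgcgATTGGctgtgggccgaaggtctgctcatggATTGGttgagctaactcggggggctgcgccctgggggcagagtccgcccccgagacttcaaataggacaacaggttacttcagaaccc
Cldn6: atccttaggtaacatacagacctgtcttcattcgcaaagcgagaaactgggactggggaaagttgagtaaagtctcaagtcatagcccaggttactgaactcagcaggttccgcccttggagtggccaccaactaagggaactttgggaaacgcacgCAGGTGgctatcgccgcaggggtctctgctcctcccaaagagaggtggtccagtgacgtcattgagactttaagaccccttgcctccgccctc
Cldn11: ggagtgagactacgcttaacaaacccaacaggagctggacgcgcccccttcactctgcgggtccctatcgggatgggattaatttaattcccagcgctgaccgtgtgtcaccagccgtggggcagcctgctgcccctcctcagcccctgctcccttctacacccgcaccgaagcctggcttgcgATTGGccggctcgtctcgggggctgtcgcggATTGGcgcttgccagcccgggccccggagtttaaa
The Cldn5 and Cldn11 windows each held 2 CCAAT boxes, all read on the opposite strand as ATTGG, and the Cldn6 window held 1 E-box. None of the 3 held TAATTA. Over all 32851 promoter windows of this length, 33.8% held a CCAAT box, 17.2% that E-box and 4.84% TAATTA. Of the 10 claudins, 9 had a window in the table, 12 windows in all, and only that of Cldn1 held TAATTA. A match describes letters and not a bound site.

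Cldn5 gave high and even signal in wild-type vesicles. Its signal was 9592, 10521, 9245, 7988 and 10631 on wild-type arrays 1 to 5, a mean of 9595 ± 1077 (SD, n = 5), which placed its wild-type mean above 94.6% of probe sets. The highest wild-type array read 1.33 times the lowest. On the log2 scale its wild-type SD was 0.15, and 1.56% of the tested probe sets had a smaller one. Selection on the group difference favours a high wild-type signal and a small spread, so these places are descriptions only.

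In the mutants Cldn5 read 734, 1058, 1329 and 609 on arrays 1 to 4, a mean of 932 ± 325 (SD, n = 4). Every mutant array lay below every wild-type array, and the wild-type mean was 10.3 times the mutant mean. On the log2(signal + 42.4) scale, where 42.4 is the pseudocount and small signals are pulled together, the mutant minus wild-type difference was -3.40 ± 0.32 (SE), with a 95% interval of -4.10 to -2.69. Of 27022 probe sets tested, 10 had a difference at least that far below 0, Cldn5 included. Signal did not reach the floor of the array: the mutant mean still stood above 72.6% of probe sets. The mutant arrays also spread more, with a log2 SD of 0.59.

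**Figure D1:**
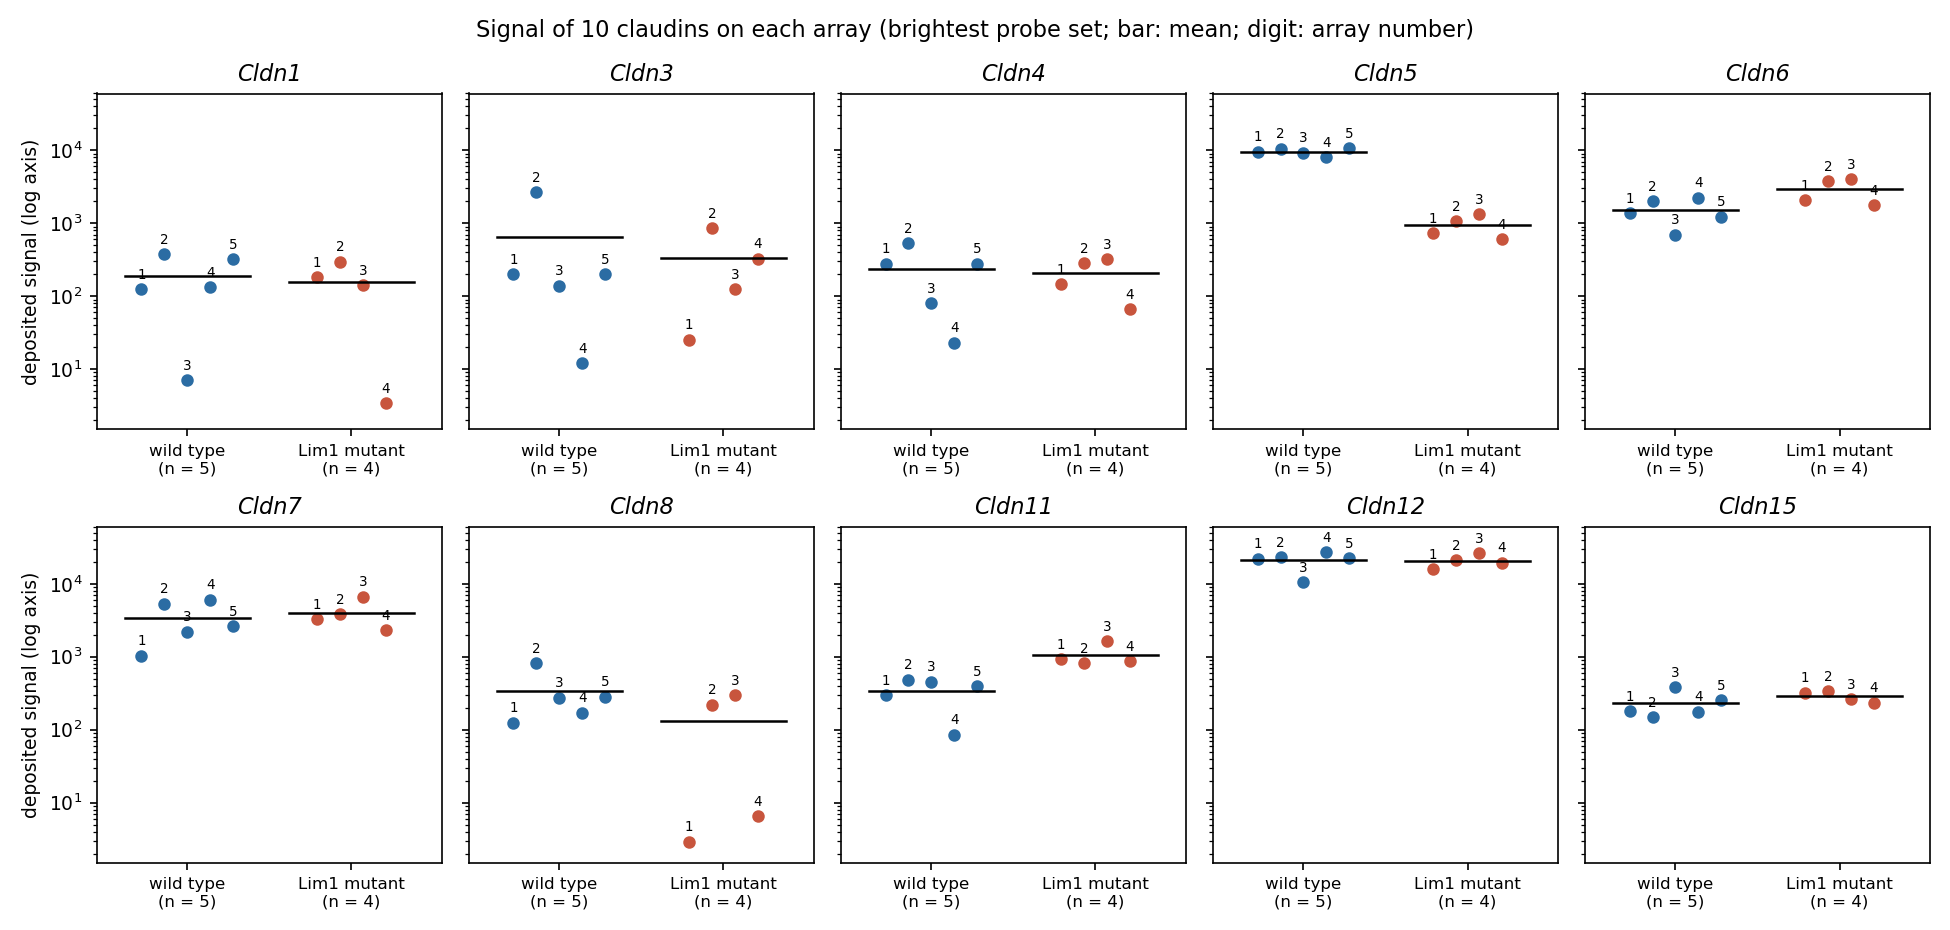
Deposited signal on a log axis for each of the 10 claudins at its brightest probe set (the one with the highest mean log2 value), with wild-type arrays in blue and Lim1 mutant arrays in red, digits giving array numbers and bars the group means. Cldn5 drops from 7988 to 10631 in the wild type to 609 to 1329 in the mutants, Cldn11 shows the mutants above the wild type, and the groups overlap for the other 8 genes.

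Among the other 9 claudins none passed the test. All 10 genes had at least 1 probe set above the filter, 14 of the 17 probe sets in all, and of the 13 that do not belong to Cldn5, 0 passed an adjusted p of 0.05 in limma, where 0.0333% of all tested probe sets did (0.0185% lower and 0.0148% higher in the mutants). An unadjusted p under 0.05 was reached by 1 of the 13, that of Cldn11, and by 6.67% of all tested probe sets. Their differences lay above 0 at 5 and below 0 at 8, with a median of -0.040, beside 0.034 over all tested probe sets. The lowest ends of their 95% intervals were -3.03 for Cldn8 and -2.75 for a Cldn3 probe set, which lie within the Cldn5 interval of -4.10 to -2.69. In this fit 0 of the 13 intervals took in the Cldn5 difference itself. Over 21 alternative settings the Cldn8 interval did so in 5, with a lowest end of -4.28. That of Cldn3 at its brightest probe set did so in 2 of 21, with a lowest end of -3.63. Fewer cells expressing a claudin and less of its RNA per cell cannot be told apart in these pooled samples.

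**Figure D2:**
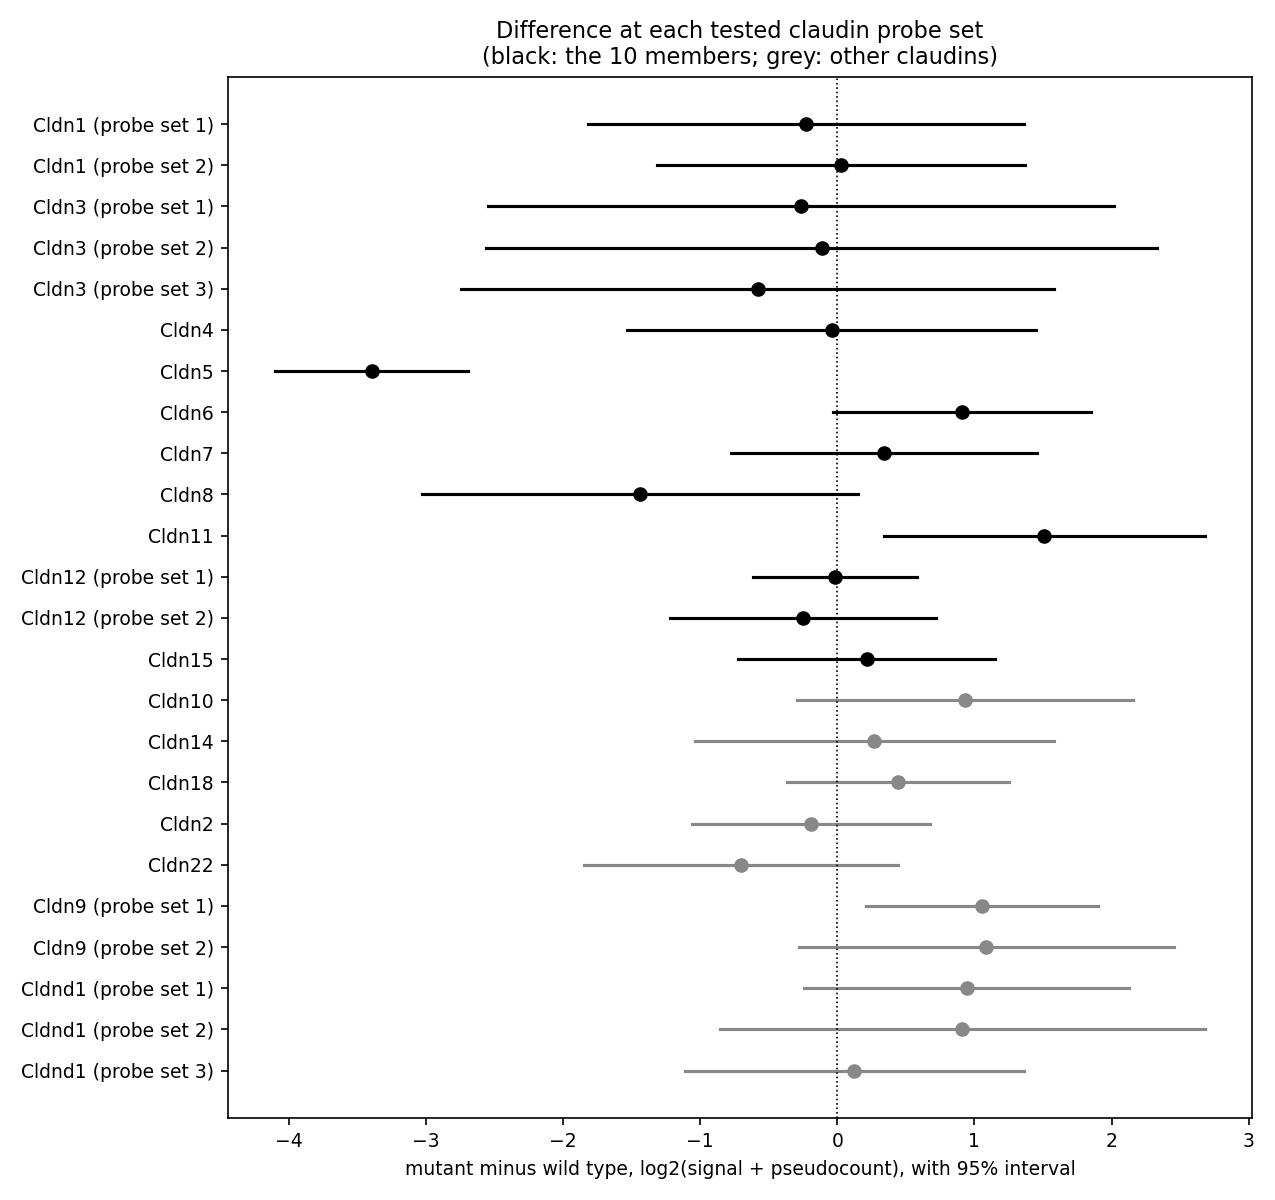
Mutant minus wild-type difference on the log2(signal + pseudocount) scale with its 95% interval at each tested claudin probe set, the 10 members in black and other claudins in grey. The Cldn5 point at -3.40 lies apart, most intervals take in 0, and those of Cldn11 and of the brighter Cldn9 probe set lie above 0 before adjustment.

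Cldn11 had the largest difference above 0 among the members. Its wild-type signals were 299, 482, 453, 85.0 and 397, and its mutant signals 925, 815, 1625 and 868. The lowest mutant array stood above the highest wild-type array, so the groups did not overlap. Groups were apart in this way, in either direction, at 2.39% of all tested probe sets, and with the mutants higher at 1.66%. Means were 343 ± 160 (n = 5) and 1058 ± 381 (n = 4), and the difference of 1.51 ± 0.53 did not pass the test (adjusted p = 0.697 in limma). Its interval ran from 0.34 to 2.68 on the log2 scale.

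Cldn6 had higher mean signal in the mutants with groups that overlapped. It read 1381, 2008, 699, 2228 and 1223 on the wild-type arrays and 2082, 3754, 4013 and 1777 on the mutant arrays. Mutant arrays 2 and 3 lay above all wild-type arrays, and the other mutants lay within the wild-type range. The difference was 0.91 ± 0.43 (adjusted p = 0.757 in limma), with an interval of -0.029 to 1.85.

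Cldn9 is the neighbour of Cldn6 on chromosome 17, the next entry in RefSeq gene order. It was not among the 10 genes chosen, though its brighter probe set stood above 91.9% of probe sets. It read 9478, 3654, 6069, 2752 and 3252 in the wild type and 7730, 15369, 8234 and 8088 in the mutants. Only wild-type array 1 reached into the mutant range. Its difference was 1.06 ± 0.39 at that probe set and 1.09 ± 0.62 at the dimmer one (adjusted p = 0.701 and 0.803 in limma).

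Cldn12 and Cldn7 gave clear signal in both groups with no shift that passed. Cldn12 read 22166, 23101, 10499, 27265 and 22226 in the wild type and 15902, 21156, 26099 and 19337 in the mutants, and it stood above 97.6% of probe sets. Wild-type array 3 gave the lowest value. The difference was -0.016 ± 0.27, and its interval of -0.61 to 0.58 was the narrowest of the 9 genes at their brightest probe sets. The second Cldn12 probe set had a difference of -0.25 ± 0.44. Cldn7 ranged more widely, at 1038, 5320, 2189, 6039 and 2625 in the wild type and 3278, 3802, 6681 and 2321 in the mutants. Its lowest and highest wild-type arrays differed 5.82 times, and its difference was 0.34 ± 0.51 (adjusted p = 0.939 in limma).

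Cldn3 had strong signal on few arrays. At its brightest probe set it read 199, 2670, 139, 12.0 and 200 on wild-type arrays 1 to 5 and 25.5, 857, 124 and 328 on the mutant arrays. Wild-type array 2 and mutant array 2 were the highest of their groups. The other 2 tested Cldn3 probe sets shared that order at the top, at 2880 and 2054 on wild-type array 2 and 858 and 626 on mutant array 2, and the fourth lay below the filter. The 3 differences were -0.26 ± 1.04, -0.11 ± 1.12 and -0.58 ± 0.99, so a change of severalfold either way lay within the intervals.

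Cldn4, which lies next to Cldn3 in gene order on chromosome 5, varied over the arrays as well. It read 278, 530, 79.6, 23.1 and 280 in the wild type and 146, 284, 323 and 66.4 in the mutants. Like Cldn3 it was highest on wild-type array 2 and lowest on wild-type array 4 within its group. The difference was -0.040 ± 0.68 (adjusted p = 0.995 in limma), and its sign turned in 9 of 21 alternative settings.

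Cldn8 had the lowest difference after Cldn5 and a split mutant group. Its wild-type signals were 124, 822, 276, 171 and 282, and its mutant signals 2.90, 220, 299 and 6.47. Mutant arrays 2 and 3 lay within the wild-type range, whereas arrays 1 and 4 read close to 0. The difference was -1.44 ± 0.73 (adjusted p = 0.785 in limma), with an interval of -3.03 to 0.15. Its size depended on the pseudocount, at -2.11 with the 10th percentile of signals and -0.76 with the median.

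Markers of the ureteric bud were set beside these claudins. Of 17 annotated bud genes 12 were tested and none passed, with 11 differences below 0, 1 above and a median of -0.53, beside 0.034 over all probe sets. The summed signal of the 17 was 19953 to 70686 in the wild type and 8309 to 17103 in the mutants, with no marker at 0. These sums did not overlap, but on wild-type arrays 4 and 5 they were mostly Emx2 (11077 and 5900) and Cdh1 (6817 and 5926). Cdh1 is also counted as an epithelial gene below. A level that weighs the 12 tested genes alike, the median log2 deviation from each gene's own mean, did overlap. It was -0.67 to 0.75 in the wild type and -0.90 to -0.096 in the mutants. Calb1, which binds calcium in bud cells, read 39640 on wild-type array 2 and 239 to 6566 on the other 8. Ret, the receptor of the bud tip, read 4688 on wild-type array 2, 7618 on array 3 and at most 485 elsewhere. Emx2, a homeobox factor of the bud, was lower on every mutant array (-2.16 ± 0.50, adjusted p = 0.387 in limma), a separation seen at 0.725% of tested probe sets. Gata3, another bud factor, named after its values were seen, lay below the filter and read 15.0 to 2141 in the wild type and 4.44 to 10.7 in the mutants. The highest array for Cldn3, Cldn4 and Cldn8 was thus also the highest for Calb1. It was the highest for Cldn1 as well, and for Epcam, Krt8, Esrp1 and Grhl2 among the epithelial genes below, but not for Cdh1, Krt18 or Ovol1. Mutant array 2, with Cldn3 at 857, had Calb1 at 429. Wnt11 of the bud tip had a difference of 0.77 ± 0.49 and Wnt9b of the bud stalk one of -0.88 ± 0.66. The part of bud cells in the claudin signals was not tested. Without wild-type arrays 2 and 3, the difference was 0.59 for Cldn3, 0.068 for Cldn4 and -0.97 for Cldn8, and that of Cldn5 was -3.36. Without wild-type arrays 3 and 4 it was -1.28 for Cldn3, -0.93 for Cldn4, -1.63 for Cldn8 and -0.91 for Cldn1.

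**Figure D3:**
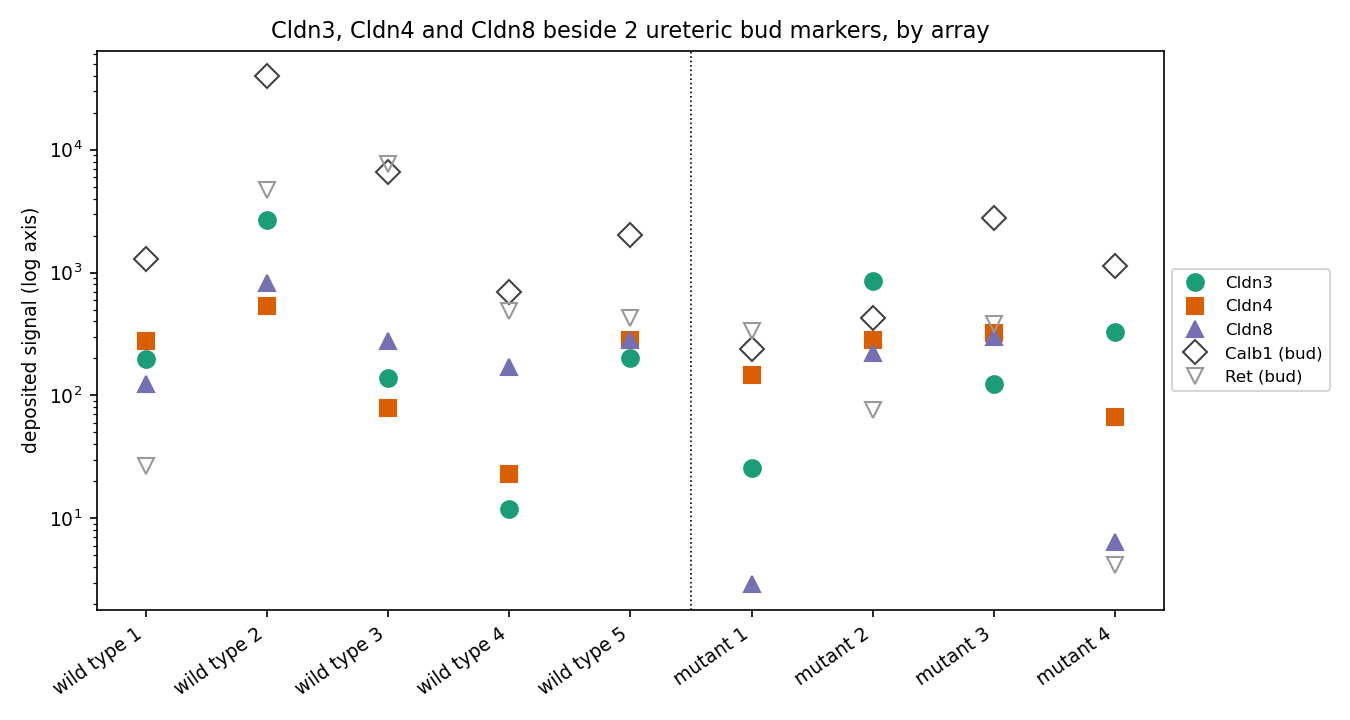
Deposited signal on a log axis for Cldn3, Cldn4 and Cldn8 (filled symbols) and for the bud markers Calb1 and Ret (open symbols) on each of the 9 arrays. All 3 claudins and Calb1 peak on wild-type array 2, while Ret peaks on array 3 (7618), where Cldn8 reads 276. Cldn8 and Ret both read under 10 on mutant array 4, but on mutant array 1 Cldn8 reads 2.90 and Ret 337.

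Cldn1 gave low signal and Cldn15 moderate signal, above 57.8% of probe sets. Cldn1 read 124, 373, 7.04, 133 and 320 in the wild type and 182, 297, 142 and 3.43 in the mutants at its brightest probe set, which stood above only 45.6% of probe sets. The low readings fell on wild-type array 3 and mutant array 4. Its 2 tested probe sets had differences of -0.23 ± 0.72 and 0.026 ± 0.61, and its other 2 lay below the filter. Cldn15 read 181, 148, 382, 177 and 256 in the wild type and 321, 340, 261 and 233 in the mutants, a difference of 0.22 ± 0.43 (adjusted p = 0.953 in limma).

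Endothelial markers were set beside Cldn5, since vessels run between the vesicles and Cldn5 is a gene of their junctions. Of 19 annotated endothelial genes, Cldn5 not among them, 17 were tested and none passed. All 17 differences lay below 0, with a median of -0.58. Icam2 had the lowest (-2.17 ± 0.98), followed by Erg (-1.42 ± 0.95), Kdr (-1.24 ± 0.93) and Emcn (-0.998 ± 0.833). Of the other defining markers, Cdh5, the cadherin of vessels, had a difference of -0.65 ± 0.42 and Tek, the angiopoietin receptor, one of -0.26 ± 0.79. Pecam1 and Tie1 lay below the filter. Their means were lower in the mutants, at 65.3 ± 63.6 and 16.5 ± 9.77 for Pecam1 and 156 ± 131 and 48.7 ± 37.0 for Tie1, with groups that overlapped. No marker was listed at 0.

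The summed signal of the endothelial markers was 10896, 12865, 46226, 27338 and 9256 on wild-type arrays 1 to 5, so the highest array read 4.99 times the lowest. On the mutant arrays it was 11163, 14927, 11901 and 9812. By this sum, wild-type arrays 3 and 4 lay above the mutant range, arrays 1 and 2 within it and array 5 below it. On wild-type array 1 and mutant array 1 the sum was mostly Ramp2 (4652 and 4299) and Egfl7 (2376 and 1705). The median log2 deviation, which weighs the 17 tested genes alike, was -0.10, 0.018, 1.73, 0.77 and -0.55 on wild-type arrays 1 to 5. It was -0.67 to 0.058 in the mutants, a range that took in wild-type arrays 1, 2 and 5. The part of endothelial cells in the Cldn5 signal was not tested. Without wild-type arrays 3 and 4, the highest in endothelial markers, the Cldn5 difference was -3.51 ± 0.40.

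**Figure D4:**
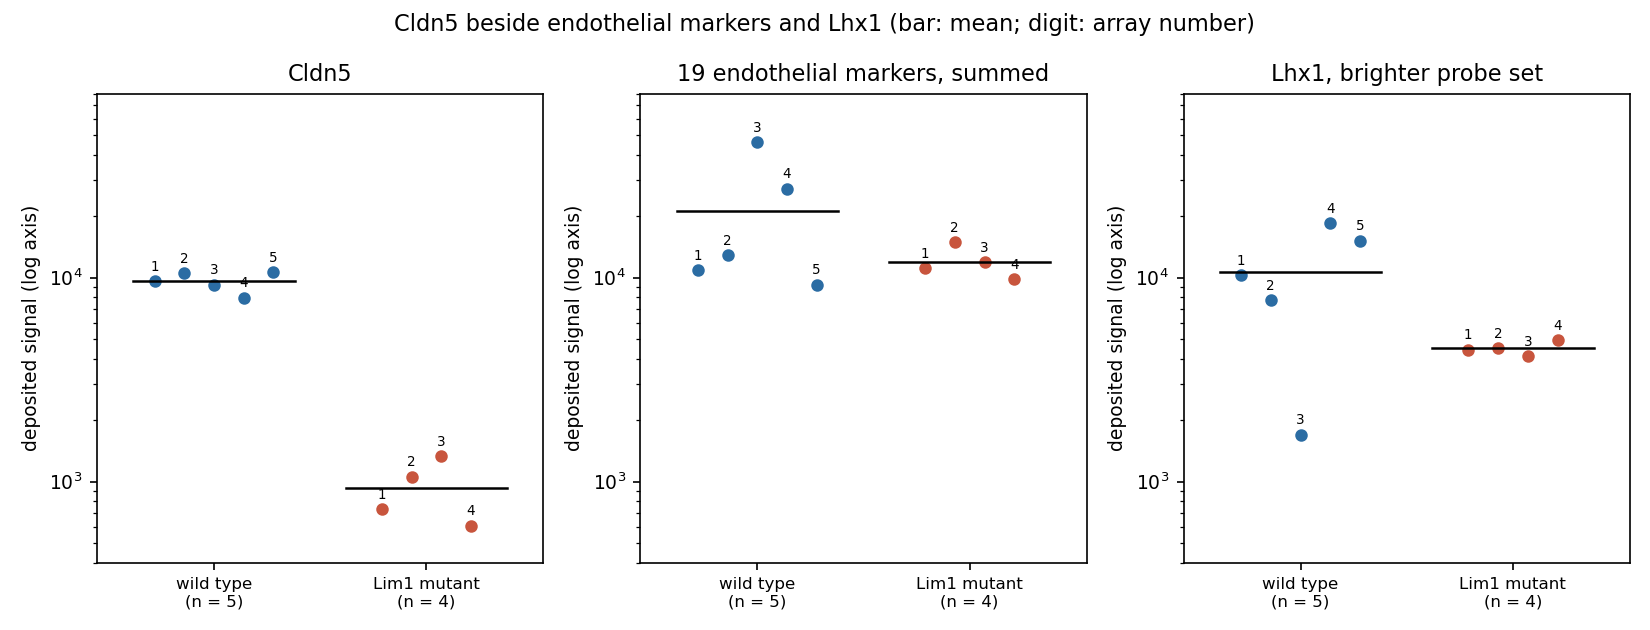
Deposited signal on a log axis for Cldn5, the sum of 19 endothelial markers and the brighter Lhx1 probe set, with 5 wild-type arrays in blue and 4 mutant arrays in red, digits giving array numbers and bars the group means. Cldn5 is level across the wild-type arrays, whereas the endothelial sum runs from 9256 to 46226 there and overlaps the mutants. The groups also overlap at the Lhx1 probe set shown.

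Cldn5 and Lhx1 did not share their order among wild-type arrays. Array 3, with the lowest Lhx1 signal at the brighter probe set (1696), read 9245 for Cldn5, and array 4, with the highest (18555), read 7988. That probe set did not separate the groups. At the one that did, array 5 was lowest (2327) and read 10631 for Cldn5, and array 4 was again highest (17587). A list of 8 genes known to act on Cldn5 or on vessel identity in endothelium held Cdh5, Foxo1, Ctnnb1, Erg, Fli1, Sox7, Sox17 and Sox18, of which Cdh5, Erg, Sox17 and Sox18 are also endothelial markers above. Of these 7 were tested, none passed, and 6 differences lay below 0 and 1 above, with a median of -0.65. Fli1, an ETS factor of vessels, had -1.25 ± 0.63 and Sox17 -0.96 ± 0.75, while Foxo1, a repressor of Cldn5 in endothelium, had 0.30 ± 0.83 and Ctnnb1, beta-catenin, -0.10 ± 0.14.

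The genes whose pattern over the 9 arrays was most like that of Cldn5 were not claudins. Likeness was the root mean square difference between log2 values centred on each gene's own mean, over 13225 genes, and so it is driven largely by the gap between the groups. The nearest was 4930523C07Rik, a clone-named gene, at 0.52, with means of 2130 in the wild type against 170 in the mutants. Hs3st3b1, a heparan sulfate sulfotransferase, followed at 0.56 (4728 and 371) and Kif26a, an atypical kinesin, at 0.65 (2030 and 76.5). Prss23, a serine protease, stood at 0.72 (4913 and 933), Myo5b, a myosin of vesicle transport, at 0.76 (3925 and 874) and Coq10b, a protein of coenzyme Q function, at 0.76 (2081 and 251). The closest claudin was Cldn8 at 1.25, in place 93, and the other 8 members lay between 1.74 and 2.50, in places 4089 to 12527. Among the members themselves the nearest pairs were Cldn6 with Cldn12 at 0.54, Cldn6 with Cldn7 at 0.62 and Cldn7 with Cldn12 at 0.65. The measure is also low for genes that vary little, so a low value alone does not show that 2 genes vary together. The group differences of Cldn6 and Cldn12 were 0.91 and -0.016.

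The genes beside Cldn5 on chromosome 16 showed no difference that passed. Of the 3 RefSeq neighbours on each side, Cdc45 and Ufd1 had probe sets. Cdc45, a part of the replicative helicase and the next gene, had differences of -0.35 ± 0.27 and -0.996 ± 0.641 (adjusted p = 0.861 and 0.825 in limma). Ufd1, a cofactor of protein degradation, had 0.083 ± 0.43 and 0.98 ± 0.62 (adjusted p = 0.984 and 0.823).

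Other claudins came from a list of further family members. Of 12 annotated genes of the list, which included the claudin-domain genes Cldnd1 and Cldnd2, 7 passed the filter, none passed the test, and 5 differences lay above 0 and 2 below, with a median of 0.45. Besides Cldn9, Cldn10, a claudin of the thick ascending limb and proximal tubule, had the second largest difference, from 174 ± 104 to 414 ± 268 (0.93 ± 0.56, adjusted p = 0.811 in limma). Cldnd1 had 0.91 ± 0.81 at its brightest probe set and Cldn22 -0.70 ± 0.52. Cldn2, the cation pore of the proximal tubule, read 216 ± 47.3 and 204 ± 64.7. Cldn16 and Cldn19, a pair of the thick ascending limb, lay below the filter.

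RNA for the partners with which claudins build the junction was measured in both groups, though some read low on single arrays. Marveld3 read 11.1 on wild-type array 4 and 9.59 on mutant array 1, and Patj 15.3 on wild-type array 1. Ocln read 36.9 on wild-type array 3 and 35.8 on mutant array 4, both below the pseudocount. Of 23 tight junction and polarity genes, all were tested and none passed, with 13 differences above 0 and 10 below and a median of 0.077. Tjp1, the scaffold ZO-1 that binds most claudins, read 8304 ± 4218 and 8638 ± 2572 (0.36 ± 0.59). F11r, the adhesion molecule JAM-A, read 5779 ± 1753 and 7237 ± 2172 (0.34 ± 0.30). Cgn, cingulin, had a difference of 0.46 ± 0.53 and Ocln, occludin, one of -0.17 ± 0.96. The furthest from 0 were Igsf5 (-1.35 ± 0.74), Magi3 (1.31 ± 0.94), Cxadr (1.28 ± 1.04) and Mpdz (1.04 ± 1.002). Of these, Magi3 and Cxadr each read under 30 on wild-type array 3, and Mpdz read lowest on wild-type array 1. Igsf5 read 181 on mutant array 2 and 2438 to 2577 on the other mutant arrays, which lay within its wild-type range of 1931 to 7648.

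Epithelial genes outside the junction list likewise gave no call among 7, with 4 differences above 0 and 3 below. Cdh1, E-cadherin, had the largest, from 4326 ± 1965 to 1883 ± 502 (-1.10 ± 0.40, adjusted p = 0.704 in limma), and Epcam, an adhesion protein that binds Cldn7, read 8626 ± 3999 and 9624 ± 3365. Stroma markers summed to 25508 to 167698 in the wild type, highest on array 3, and to 30389 to 66556 in the mutants. Cap mesenchyme markers summed to 20333 to 36268 and 25126 to 31694.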

How the data were processed

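The authors deposited 1 linear intensity per probe set and array, and the submitters' processing notes name GCOS. Its algorithm and version were not given in the sources used here. The mean after trimming 2% at each end was 1500 on every array. RNA was amplified in 2 rounds, per the labels' protocols, which can lower the signal of probe sets far from the transcript end. Places among probe sets describe array signal only and do not compare RNA between genes. Probe sets were named from the platform annotation (34958 with 1 symbol, 932 with several, 9211 with none).

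Values were transformed as log2(intensity + 42.4), the 25th percentile, and quantile normalised. After 64 control probe sets were removed, the 27022 with means at or above the 40th percentile were fitted with limma 3.58.1 in R 4.3.3 (eBayes with trend, group as the only term, two-sided) and adjusted by Benjamini-Hochberg at 0.05. The fit was tested on simulated data. A gene stands by the probe set with the highest mean log2 value, called its brightest. Overlap of groups was read on deposited signals. The number of arrays limits precision. Alternatives covered normalisation, filter, pseudocount, variance model, array weights, arrays left out and a replicate block.

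Genes were named by rule: the members, Lhx1, the 6 genes most like Cldn5, its RefSeq neighbours, fixed markers, and up to 4 list members with the largest differences. Members and lists were chosen with earlier results of these data known.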

Additional observations from a re-analysis of the deposited data

Results flagged for a closer look

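By Dixon's test on the deposited signals, without a log scale, 1 array lay far from the others in 3 of 20 groups of claudin signals. Chance gives about 5% of groups only if the values are normally distributed, which was not tested here. The log2 values were not put to this test. Cldn3 read 2670 on wild-type array 2, against 12.0 to 200 on the other wild-type arrays. Cldn8 read 822 on the same array, against 124 to 282. Cldn11 read 1625 on mutant array 3, against 815 to 925 on the other mutants, and without that array its difference was 1.26 ± 0.59.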

How the results depend on the processing

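None of the tested probe sets of the 9 members besides Cldn5 passed in limma under any of 21 alternative settings, with 1 or 2 at an unadjusted p under 0.05. The Cldn5 difference lay between -3.60 and -3.21 over 22 settings, that of Cldn11 between 1.13 and 1.82 and that of Cldn6 between 0.61 and 1.13. Over all probe sets the count of 9 became 0 with the replicate block (1757 at an unadjusted p under 0.05), 0 without wild-type arrays 1 and 3 (2013), 0 without wild-type arrays 2 and 3 (2157) and 1 without wild-type arrays 3 and 4, and 3 to 8 with each array left out in turn. Leaving out wild-type arrays 2 and 3 (highest in bud markers) or 3 and 4 (highest in endothelial markers) was chosen after seeing the data. Same-numbered arrays did not deviate together (r of -0.11 to 0.054 over 4 pairs). Only mutant array 4 correlated best with the wild-type array of its own number. The labels do not say what the numbers mark, and correlations over 4 pairs cannot exclude a pairing. Signs turned for differences near 0. Cldn4 was 0.041 without further normalisation, 0.033 with the pseudocount at the 10th percentile, 0.13 with the replicate block, 0.068 without wild-type arrays 2 and 3, and -0.48 to 0.31 with 1 array left out. Cldn12 was 0.016 without further normalisation, 0.0086 with the block and -0.26 to 0.11 with 1 array left out. Without wild-type arrays 3 and 4, Cldn3 was -1.28, Cldn4 -0.93 and Cldn1 -0.91. Cldn8 ranged from -2.11 to -0.76 over the settings. Cldn1 was 0.056 with the block and -0.71 to 0.36 with 1 array left out. Cldn3 was 0.59 without wild-type arrays 2 and 3 and -0.91 to 0.53 with 1 array left out, and Cldn7 was -0.25 without wild-type arrays 1 and 3. The cause was not tested. Cldn1, Cldn3, Cldn4, Cldn8 and Cldn15 were not tested with the filter at the 60th percentile.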

Other observations

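Cldn34c1, a claudin-like gene outside the lists and named after its values were seen, varied widely within both groups. At its brighter probe set it read 116, 1744, 88.5, 504 and 2972 on wild-type arrays 1 to 5 and 307, 1221, 107 and 157 on mutant arrays 1 to 4. Wild-type arrays 5 and 2 and mutant array 2 were high, and the groups overlapped (-0.75 ± 1.001, adjusted p = 0.928 in limma). The other tested probe set read highest on wild-type array 2, at 466, and ranged from 63.5 to 253 on the mutant arrays.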
